A study of Rattus norvegicus with 10 samples.

Results

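The genes described here, 87 of the 16041 in the deposited expression table of rat prefrontal cortex, had a control level above a fixed floor, and their median in the early life stress (ELS) group was at most 0.5 of the control median. They were selected on these levels: a gene entered when its median over the 5 control libraries was at least 3 RPKM and its ELS median was at most 0.5 of it. RPKM, reads divided by gene length and library total, is a level per length, so levels of different genes can be set side by side. In all, 10543 genes reached the control floor and 100 of them (0.948%) met both conditions. The rule leaves out 11 symbols (Slc1a2, Grin2a, Grin2b, Cacna1e, Rab3c, Ago2, Erbb4, Bmpr2, Kdm7a, Col19a1 and Alas2), and symbols that begin with Hba, Hbb, Mir or SNOR, which removed 13 of the 100. Because the ELS to control difference chose these genes, their differences between the groups are given as a description, with no test.

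All 10 animals were male Sprague-Dawley rats whose prefrontal cortex was collected at postnatal day 91, and each library came from 1 tissue sample. The 5 ELS rats had been raised under limited nesting, in which dam and pups have little nest material, from postnatal day 2 to day 9. The 5 control rats (Con1 to Con5) were compared with them (ELS1 to ELS5). Litters were not given in the labels, so any p-value measures only the spread between these tissue samples.

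Some of the encoded proteins work in neurons and at synapses, and their share was not set against that of other genes in the tissue. Neurons transport cargo along actin with myosin motors, pass signals inward through kinases, phosphatases and small GTPases, and remove proteins by tagging them with ubiquitin. Early rearing with scarce nest material is widely used in rodents as a model of adversity, and the prefrontal cortex, which serves planning and the control of emotion, matures late. The 87 genes were sorted by role, after their values were known, into 10 groups: 12 regulators of transcription and chromatin, 10 channels, receptors and transporters, 10 cytoskeleton, trafficking and membrane genes, 9 kinases, phosphatases and their regulators, 7 adhesion, matrix and guidance genes, 7 ubiquitin ligases and RNA-binding proteins, 7 other signalling genes, 6 small GTPases and their regulators, 5 small non-coding RNAs, and 14 other or unnamed genes.

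Library totals ran from 18838898 to 22311136 reads. Their means were 20861443 ± 1238653 reads in controls and 19876034 ± 784379 reads in ELS (SD, n = 5 in each group, exact permutation test over all assignments, two-sided, p = 0.175). Genes at 0 were more numerous in ELS, 474.2 ± 20.1 against 424.8 ± 25.2 (SD, n = 5 in each group, exact permutation test, two-sided, p = 0.00794, adjusted over 3 library measures 0.0238). The groups nearly met, with 449 such genes in Con4, the highest control, and 450 in ELS2, the lowest of ELS. These counts were not adjusted for library total. The share of reads in the listed genes was 73.0% ± 0.790 in ELS and 71.9% ± 0.529 in controls (SD, n = 5 in each group, exact permutation test, two-sided, p = 0.0397, adjusted 0.0595). ELS2 had the lowest share of its group, at 71.8% against 72.9% to 73.7% in ELS1, ELS3, ELS4 and ELS5. Without ELS2 the adjusted p of the same exact test was 0.0119. With any other single library left out it was 0.0595 to 0.119. Con4 stood apart in its cell markers, with the highest summed oligodendrocyte level (2373 RPKM against 1163 to 1482 in the other controls) and the highest choroid plexus level (31.2 RPKM against 0.961 to 2.64 in the other controls and 0.859 to 1.49 in ELS).

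The sequence around a transcription start is shown for 4 members, chosen for their level or their place in the set, to show how these windows differ. Myo5a and Ppp1r9a are among the 3 members of highest control level, Grm5 is an abundant receptor gene just inside the ratio threshold, and Ndst4 was lower in every ELS library than in any control. The sequences are 300-base windows from RefSeq on the rat build GRCr8, which differs from the build of the deposited table, and each runs 5′ to 3′ on the strand of its gene. Capitals mark the GC box, searched as GGGCGG and its reverse complement CCGCCC with overlaps allowed.
Myo5a, chr8:84692699-84692998, plus strand: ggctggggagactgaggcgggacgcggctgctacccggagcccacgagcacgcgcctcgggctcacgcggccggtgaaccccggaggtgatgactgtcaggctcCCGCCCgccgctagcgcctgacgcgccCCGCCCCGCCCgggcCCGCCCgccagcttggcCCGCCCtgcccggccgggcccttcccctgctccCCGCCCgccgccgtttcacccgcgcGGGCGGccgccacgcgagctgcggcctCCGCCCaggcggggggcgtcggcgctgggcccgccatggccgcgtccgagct
Ppp1r9a, chr4:33988577-33988876, plus strand: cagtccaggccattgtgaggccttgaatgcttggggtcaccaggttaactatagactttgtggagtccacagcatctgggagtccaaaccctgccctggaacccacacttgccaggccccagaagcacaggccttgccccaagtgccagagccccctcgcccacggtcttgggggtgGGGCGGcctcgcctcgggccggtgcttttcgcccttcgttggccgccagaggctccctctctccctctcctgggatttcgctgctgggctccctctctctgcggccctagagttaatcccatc
Grm5, chr1:150733503-150733802, plus strand: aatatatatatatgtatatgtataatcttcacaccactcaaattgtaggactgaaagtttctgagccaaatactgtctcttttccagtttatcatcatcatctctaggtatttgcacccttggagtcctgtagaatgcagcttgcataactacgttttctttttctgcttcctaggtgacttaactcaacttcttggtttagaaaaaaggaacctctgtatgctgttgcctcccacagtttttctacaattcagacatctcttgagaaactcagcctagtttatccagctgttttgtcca
Ndst4, chr2:216461293-216461592, plus strand: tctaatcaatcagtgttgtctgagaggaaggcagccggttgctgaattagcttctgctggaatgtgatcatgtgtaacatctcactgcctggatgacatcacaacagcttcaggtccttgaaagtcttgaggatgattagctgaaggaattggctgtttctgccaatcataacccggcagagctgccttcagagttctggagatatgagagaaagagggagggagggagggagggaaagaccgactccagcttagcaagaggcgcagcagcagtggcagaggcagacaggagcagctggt
The Myo5a window held 8 GC boxes and 81.3% G and C bases, and the Ppp1r9a window held 1 box and 63% G and C. Those of Grm5 and Ndst4 held 0 boxes, with 37.3% and 51% G and C. Of 76 RefSeq windows of members, 43 (56.6%) held the box, as did 63.4% of 8466 windows of other genes above the floor and 33.1% of all 33469 windows. Only 60 of the 87 members had a window, under the 80% needed, so a comparison of the set with other genes on these windows is void.

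ELS1, ELS3, ELS4 and ELS5 held the members at low levels, and ELS2 held most of them at control levels. Each member's level was divided by its own control median, and the median of these ratios was then taken over the 87 members in each library. It was 0.456 in ELS1, 0.190 in ELS3, 0.269 in ELS4 and 0.365 in ELS5. In ELS2 it was 1.0. The controls gave 1.04 in Con1, 1.0 in Con2, 0.723 in Con3, 0.771 in Con4 and 1.05 in Con5. Over all 10543 genes above the floor the same median was 0.997 to 1.03 in every library.

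**Figure D1:**
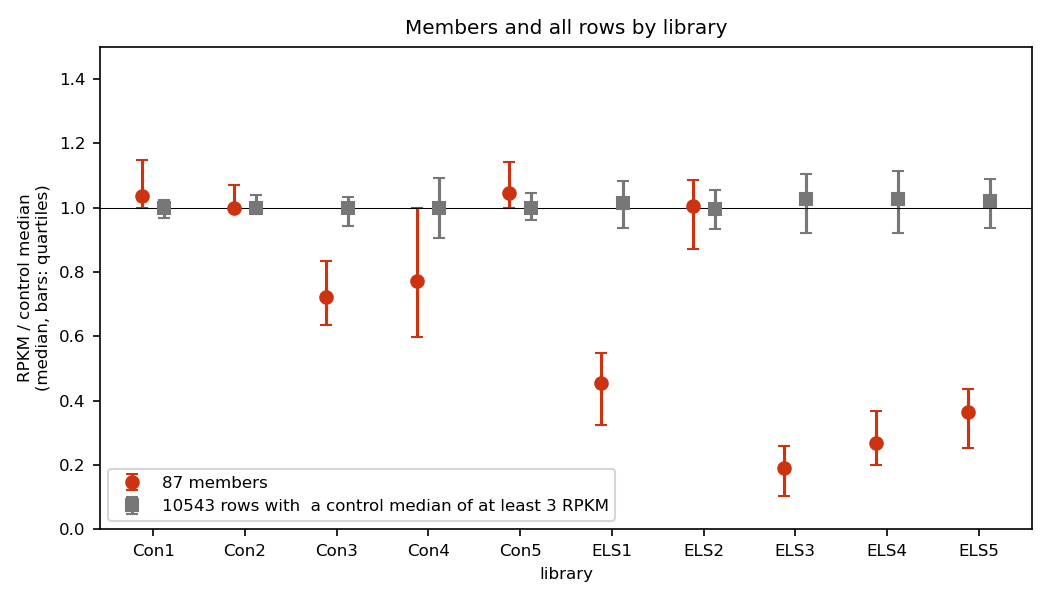
Level relative to the control median (vertical axis, a ratio) in each of the 10 libraries (horizontal axis), as the median with bars from the lower to the upper quartile, for the 87 members (circles) and the 10543 genes with a control median of at least 3 RPKM (squares). Members sat lowest in ELS3 (0.190) and ELS4 (0.269), at 1.0 in ELS2, and below 1 in Con3 (0.723) and Con4 (0.771).

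The libraries kept a common order across much of the set. In 49 of 87 members (56.3%) the ELS levels ran ELS3, ELS4, ELS5, ELS1, ELS2 from lowest to highest, an order found in 3.08% of the genes above the floor. ELS2 was the highest ELS library for 78 members (89.7%, against 17.97% of the genes above the floor) and ELS3 the lowest for 72 (82.8%, against 20.7%). Con3 and Con4 were the lowest pair of controls for 57 members (65.5%), against 17.3% of the genes above the floor. These counts describe how the same 10 libraries vary across members that were chosen by their medians.

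Only 6 members, Ndst4, Cartpt, AABR07066826.1, Slc9a2, Amer2 and Tp53inp1, had all 5 ELS libraries below every control, a pattern that 2.51% of the genes above the floor showed. Leaving ELS2 aside, 67 members (77.0%) had the other 4 ELS libraries below every control, against 6.37% of the genes above the floor. Both counts follow from how the members were chosen and nothing is read from them. The same holds for such counts within the role groups below. In ELS2, 77 members (88.5%) were at or above their lowest control, close to the 84.5% of the genes above the floor, and 44 were at or above the control median. The same count was 17 members (19.5%) in ELS1, 6 (6.90%) in ELS3, 7 (8.05%) in ELS4 and 11 (12.6%) in ELS5. Over the genes above the floor the shares in these libraries were 84.5%, 81.1%, 81.3% and 84.2%. These counts too follow from the choice of members.

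**Figure D2:**
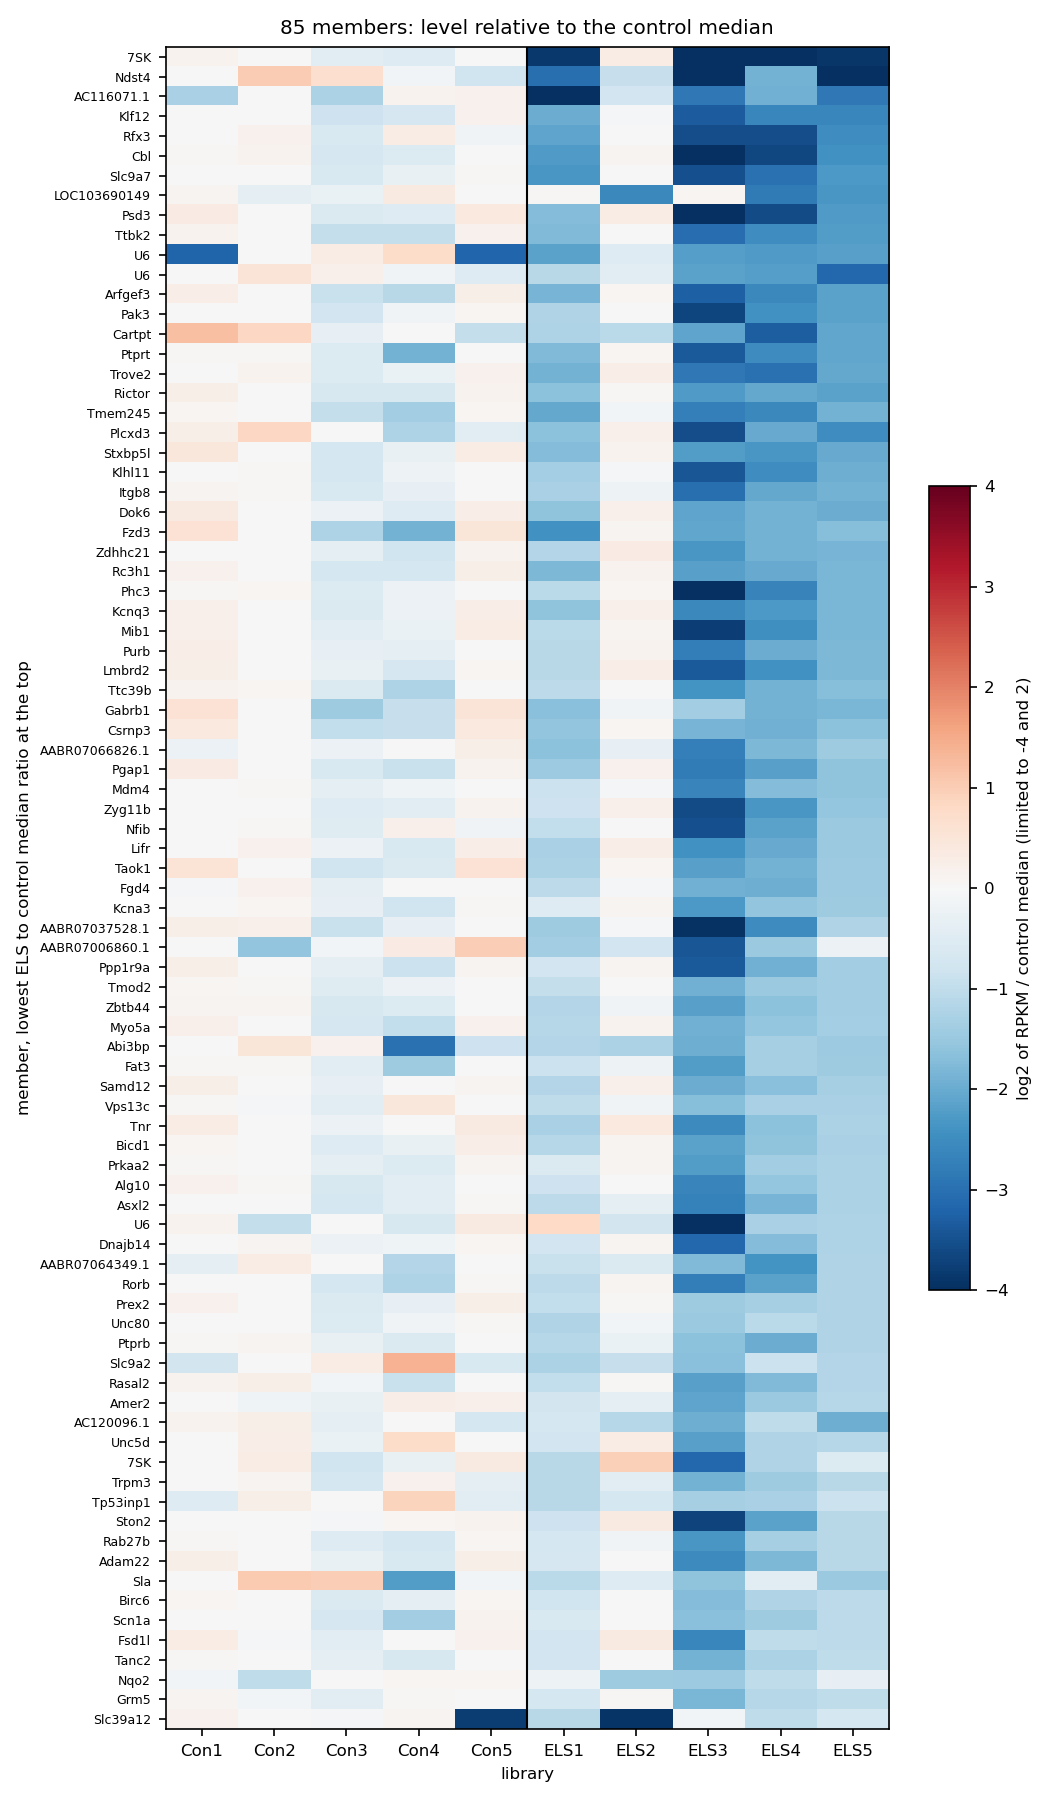
Each row is 1 of 85 of the members, ordered from the lowest ratio of medians at the top, and each column is 1 library. Colour gives the log2 ratio of the level to the member's control median, blue for lower and red for higher, limited to -4 and 2. ELS1, ELS3, ELS4 and ELS5 are blue for most rows, ELS2 is pale like the controls except in a few rows, and Con3 and Con4 are a light blue in many.

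Across all 14642 genes tested with limma, 0 (0%) passed an adjusted p of 0.05, and so did 0 of the 87 members. At an unadjusted p under 0.05, 10.3% of all genes were lower in ELS and 10.1% were higher. Among the members 77 were lower at that level, a count that the choice of members produced. limma-voom on the recovered reads also called 0 genes. Without ELS2 the same limma fit called 440 genes, 305 of them lower and 135 higher.

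Cell type markers were measured beside these levels. The summed level of 11 oligodendrocyte markers was 1163 to 2373 RPKM in controls and 873 to 1141 RPKM in ELS, without overlap. The 7 markers of oligodendrocyte precursors summed to 73.0 to 96.7 RPKM in controls and 59.9 to 71.4 RPKM in ELS, and 9 astrocyte markers to 1262 to 1506 and 1101 to 1235 RPKM, also without overlap. Microglial sums (8 markers) were 100.5 to 119.6 and 88.2 to 105.9 RPKM, and those of 4 blood markers 411.5 to 981 and 214 to 438 RPKM. Sums of 8 excitatory neuron markers, of which Rorb is a member of the set, were 1211, 1189, 1147, 1500 and 1252 RPKM in Con1 to Con5. In ELS they were 1293 to 1479 RPKM, so every ELS library was above every control but Con4. Interneuron sums (8 markers) were 201.5 to 377 and 346 to 391 RPKM. Among the other lists, endothelial sums (5 markers) were 66.4 to 83.1 and 70.4 to 78.5 RPKM, and meningeal sums (7 markers) 29.3 to 56.5 and 35.7 to 42.7 RPKM. Striatal sums (8 markers) were 49.1 to 201.2 and 97.8 to 110.1 RPKM, and neuroblast sums (7 markers) 14.2 to 41.5 and 16.4 to 20.6 RPKM. Con4 gave the lowest control sum of the interneuron, endothelial, meningeal, striatal and neuroblast lists. None of these listed markers was at 0 in every library. In ELS2 the oligodendrocyte sum was 1141 RPKM, the highest of ELS and close under the lowest control (1163 RPKM in Con1). Its precursor sum was 66.1 and its astrocyte sum 1145 RPKM, also below every control. The median ratio of the members to their control median was 1.0 in ELS2. The part of cell makeup in the members' levels was not tested, and in bulk tissue fewer cells of a type and less RNA per cell cannot be told apart.

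Among the cytoskeleton, trafficking and membrane genes the ELS median was 24.7% to 49.3% of the control median. All 10 had ELS1, ELS3, ELS4 and ELS5 below every control, against 77.0% of all members and 6.37% of genes above the floor. Myo5a, a class V myosin motor that carries organelles and vesicles along actin, had the highest control level of the set. It measured 46.0, 40.3, 25.4, 20.4 and 45.8 RPKM in Con1 to Con5. Its levels in ELS1, ELS3, ELS4 and ELS5 were 18.2, 10.6, 13.8 and 15.6 RPKM, and that in ELS2 was 44.3 RPKM. The controls split, with Con3 and Con4 far below the other 3, and ELS2 sat with the upper controls. The group means were 35.6 ± 11.9 RPKM in controls and 20.5 ± 13.6 RPKM in ELS (SD, n = 5 in each group), with ELS2 far above the rest of its group.

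Tmod2, a neuronal tropomodulin that caps the slow-growing ends of actin filaments, stood second in control level. It measured 38.5, 38.2, 26.3, 31.0 and 36.8 RPKM in Con1 to Con5. In the ELS group it measured 18.8, 9.67, 13.2 and 14.0 RPKM in ELS1, ELS3, ELS4 and ELS5, and 36.3 RPKM in ELS2. Here the controls lay closer together than for Myo5a, and the gap between the lowest control and ELS1 was wide. Tanc2, a scaffold of the postsynaptic side, measured 17.0, 16.6, 12.8, 10.7 and 16.6 RPKM in the controls. It measured 9.69, 4.50, 6.98 and 8.19 RPKM in ELS1, ELS3, ELS4 and ELS5, and 16.4 RPKM in ELS2. Con4 was thus only just above ELS1 for this gene.

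Stxbp5l, a tomosyn that binds syntaxin and restrains vesicle priming, measured 9.39, 6.86, 4.17, 5.53 and 8.51 RPKM in Con1 to Con5. It was at 2.07, 1.46, 1.35 and 1.69 RPKM in ELS1, ELS3, ELS4 and ELS5, and at 7.59 RPKM in ELS2. Those 4 ELS levels were nearly equal, unlike most members, and ELS2 was above 3 of the 5 controls. Zdhhc21, an enzyme that attaches palmitate to membrane proteins, measured 5.13, 5.03, 3.85, 2.91 and 5.58 RPKM in controls. Its ELS levels were 2.22, 0.995, 1.35 and 1.40 RPKM, with ELS2 at 6.34 RPKM, above every control. Ston2, an adaptor for the retrieval of synaptic vesicle protein, had the tightest controls of the set, 5.50, 5.50, 5.19, 5.76 and 6.08 RPKM. In ELS1, ELS3, ELS4 and ELS5 it was at 3.07, 0.422, 1.24 and 2.56 RPKM, and in ELS2 at 7.10 RPKM. The spread of Ston2 in ELS was therefore wide on both sides of its narrow control range. Vps13c, a lipid transfer protein at organelle contacts, was at 3.53 to 6.63 RPKM in controls, 1.49 to 2.44 RPKM in the 4 lower ELS libraries and 4.45 RPKM in ELS2. The remaining members of this group are Pgap1, Bicd1 and Alg10.

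**Figure D3:**
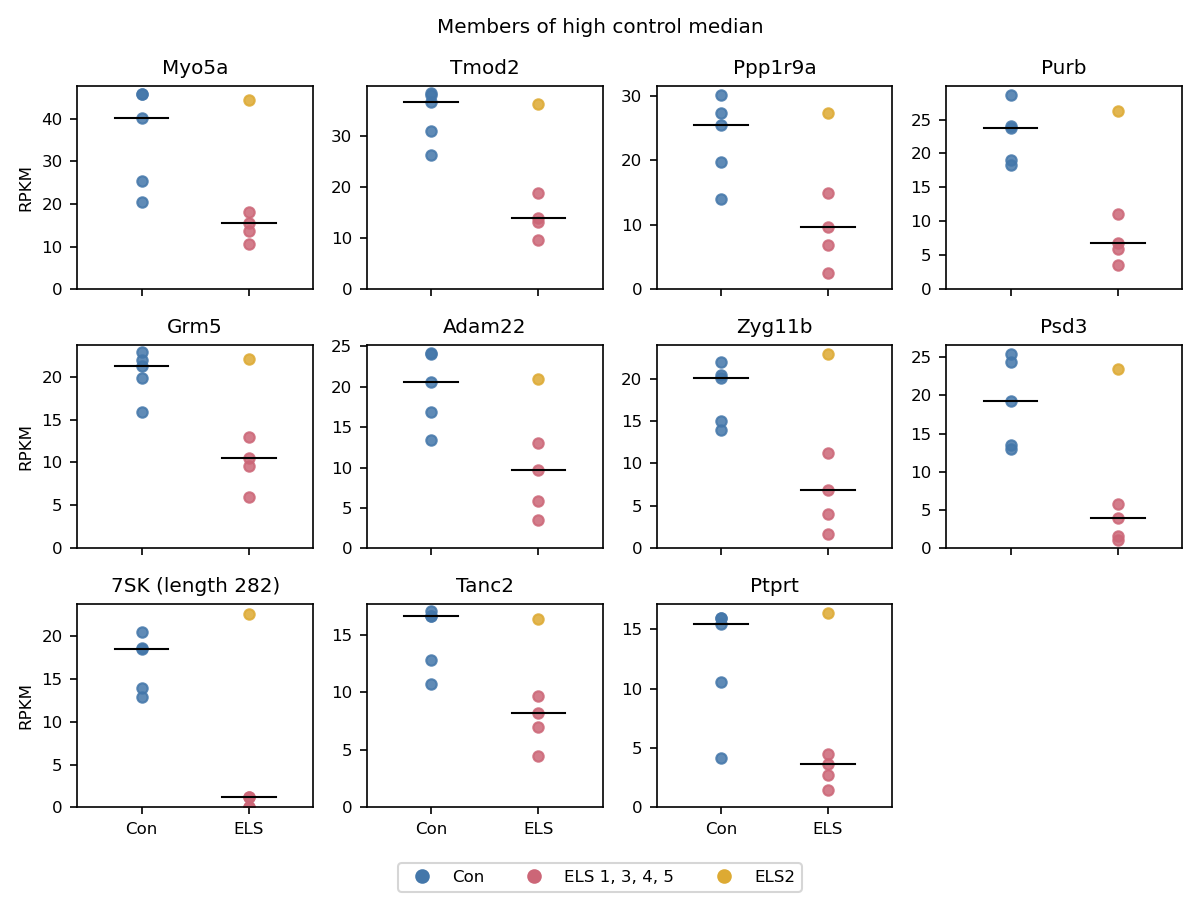
RPKM (vertical axes, each from 0) of 11 members of high control median in the 5 control and 5 ELS libraries. Points are libraries, with ELS2 in yellow, and horizontal bars are group medians. ELS2 lies within or above the control points in each panel, for example at 44.3 RPKM for Myo5a and 22.6 RPKM for 7SK, while the other 4 ELS points lie low.

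The 9 kinases, phosphatases and their regulators had a median of 24.4% of the control level in ELS. In all 9 Con3 and Con4 were the lowest controls (65.5% of all members and 17.3% of genes above the floor). In 7 of them the 4 lower ELS libraries were below every control (77.0% of all members, 6.37% of genes above the floor). ELS2 was at or above the lowest control in all 9 (88.5% of all members, 84.5% of genes above the floor).

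Ppp1r9a encodes neurabin, which binds actin and brings protein phosphatase to dendritic spines. Its levels were 30.2, 25.6, 19.7, 14.0 and 27.3 RPKM in Con1 to Con5. They were 15.0, 2.49, 6.82 and 9.69 RPKM in ELS1, ELS3, ELS4 and ELS5, and 27.4 RPKM in ELS2. The groups overlapped even without ELS2, since ELS1 was above Con4. Ptprt, a receptor tyrosine phosphatase that also mediates adhesion, measured 16.0, 16.0, 10.5, 4.14 and 15.5 RPKM in controls. It measured 4.51, 1.50, 2.71 and 3.68 RPKM in ELS1, ELS3, ELS4 and ELS5, and 16.4 RPKM in ELS2. Con4 lay within the range of the lower ELS libraries for this gene.

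Pak3, an X-linked kinase that acts below Rac and Cdc42 on spine actin, measured 10.9, 10.7, 6.27, 9.79 and 11.3 RPKM in Con1 to Con5. In ELS1, ELS3, ELS4 and ELS5 it was at 4.63, 0.837, 1.98 and 2.43 RPKM, and in ELS2 at 10.5 RPKM. The 4 lower ELS libraries lay below every control. Ttbk2, a tau tubulin kinase needed to form cilia, measured 6.41, 5.77, 3.01, 3.01 and 6.55 RPKM in controls and 1.69, 0.695, 1.03 and 1.22 RPKM in the same 4 ELS libraries. Its ELS2 level was 5.75 RPKM. Taok1, Rictor, Ptprb and Prkaa2, also of this group, had ELS medians within 24.4% and 43.9% of their control medians.

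Of the 35 other kinases and phosphatases in a list of neuronal enzymes, 0 passed the adjusted threshold of limma, 1 was lower and 11 were higher at an unadjusted p under 0.05, and their median log2 fold change (ELS over control) was 0.13. Over all 14555 tested genes outside the set this median was 0.00, with 1436 lower and 1475 higher at that level. Ttbk1, the paralogue of Ttbk2, was at 14.5 ± 1.61 RPKM in controls and 16.9 ± 1.25 RPKM in ELS (SD, n = 5 in each group). This and the other paralogues below were picked for their family after values were known.

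In the group of small GTPases and their regulators, all 6 members had the 4 lower ELS libraries below every control. Over all members the share was 77.0%, and over genes above the floor 6.37%. Psd3 (EFA6D), an exchange factor that loads the GTPase ARF6 at synaptic membranes, measured 24.3, 19.3, 13.0, 13.5 and 25.4 RPKM in Con1 to Con5. It measured 5.80, 1.07, 1.62 and 4.02 RPKM in ELS1, ELS3, ELS4 and ELS5, and 23.5 RPKM in ELS2. No library lay between 5.80 and 13.0 RPKM. The group means of Psd3 were 19.1 ± 5.82 RPKM in controls and 7.20 ± 9.30 RPKM in ELS (SD, n = 5 in each group). Arfgef3, of the ARF exchange factor family, measured 7.61, 6.40, 3.48, 2.99 and 7.49 RPKM in controls, 1.76, 0.671, 1.07 and 1.45 RPKM in ELS1, ELS3, ELS4 and ELS5, and 6.72 RPKM in ELS2. The order of the libraries was nearly that of Psd3. Rab27b, a GTPase of secretory vesicles, was at 4.51 to 7.63 RPKM in controls, 1.46 to 4.44 RPKM in the 4 lower ELS libraries and 6.62 RPKM in ELS2. The remaining members, Prex2, Rasal2 and Fgd4, regulate the Rac, Ras and Cdc42 GTPases.

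Of the 13 other ARF exchange factors, 0 were lower and 2 higher at an unadjusted p under 0.05, 0 passed the adjusted threshold, and their median log2 fold change was 0.00. Psd2 was at 21.3 ± 1.19 RPKM in controls and 22.4 ± 1.06 RPKM in ELS, and Arfgef1 at 15.2 ± 1.16 and 14.6 ± 1.16 RPKM (SD, n = 5 in each group).

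The 10 channels, receptors and transporters had ELS medians of 19.7% to 49.8% of the control median. Grm5, the metabotropic glutamate receptor mGluR5 of the postsynaptic membrane, measured 22.8, 19.9, 15.8, 22.0 and 21.3 RPKM in Con1 to Con5. Its levels were 13.0, 5.95, 9.63 and 10.5 RPKM in ELS1, ELS3, ELS4 and ELS5, and 22.0 RPKM in ELS2. The controls were among the 5 tightest of the set (coefficient of variation 13.5%), and the 4 lower ELS libraries were below all of them. Slc9a7, a sodium and proton exchanger of the Golgi, measured 7.69, 7.57, 4.97, 6.10 and 7.85 RPKM in controls and 1.49, 0.660, 0.947 and 1.53 RPKM in those 4 libraries. With 7.62 RPKM, ELS2 was among the upper controls.

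Kcnq3, a subunit of the M-current potassium channel that limits repetitive firing, measured 10.3, 8.87, 5.98, 7.47 and 10.7 RPKM in Con1 to Con5. Levels of 2.93, 1.49, 1.82 and 2.49 RPKM were found in ELS1, ELS3, ELS4 and ELS5, and 10.1 RPKM in ELS2. ELS2 lay among the upper controls. Kcna3, a voltage-gated potassium channel also known from lymphocytes, measured 4.05, 4.27, 3.26, 2.35 and 4.19 RPKM in controls and 2.82, 0.824, 1.35 and 1.50 RPKM in ELS1, ELS3, ELS4 and ELS5. ELS1 overlapped the controls, and ELS2 was above them at 4.41 RPKM. Of 18 other voltage-gated potassium channel subunits, 0 passed the adjusted threshold, and 0 were lower and 3 higher at an unadjusted p under 0.05, with a median log2 fold change of 0.11.

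Slc39a12, a zinc transporter found in astrocytes and neurons of the brain, departed from the pattern of the set. It measured 4.81, 4.24, 4.15, 4.62 and 0.303 RPKM in Con1 to Con5. In ELS1 to ELS5 it measured 1.96, 0.277, 3.89, 2.11 and 2.63 RPKM. Con5 and ELS2 were the low libraries, more than 6-fold under the next lowest of any group (1.96 RPKM in ELS1), and ELS3, the lowest ELS library for most members, was the highest. Slc9a2, another sodium and proton exchanger, measured 2.47, 4.14, 5.10, 10.8 and 2.71 RPKM in controls and 1.72, 2.17, 1.31, 2.26 and 1.85 RPKM in ELS1 to ELS5. All ELS levels were below all controls, though ELS4 and Con1 were close. Unc80, Gabrb1, Trpm3 and Scn1a complete the group.

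The 12 regulators of transcription and chromatin had ELS medians of 16.3% to 46.6% of the control median. In 11 of them the 4 lower ELS libraries were below every control, against 77.0% of all members and 6.37% of genes above the floor. Klf12, a repressor of the Krüppel-like family, measured 3.23, 3.21, 1.81, 2.01 and 3.61 RPKM in Con1 to Con5. It was at 0.808, 0.322, 0.523 and 0.522 RPKM in ELS1, ELS3, ELS4 and ELS5, and at 3.07 RPKM in ELS2. Rfx3, a regulator of genes for cilia, measured 3.68, 4.13, 2.41, 4.50 and 3.33 RPKM in controls, and 0.850, 0.318, 0.318 and 0.658 RPKM in the same ELS libraries. ELS2 was at 3.63 RPKM, and Con4 was here the highest control. For both genes the lowest control was more than 2-fold above the highest of the 4 lower ELS libraries.

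Nfib, a nuclear factor I protein of glia and neurons, measured 10.7, 10.9, 7.60, 12.2 and 9.72 RPKM in controls and 5.35, 0.937, 2.39 and 3.78 RPKM in ELS1, ELS3, ELS4 and ELS5, with 10.5 RPKM in ELS2. Its paralogue Nfia was at 7.38 ± 0.937 RPKM in controls and 4.83 ± 1.23 RPKM in ELS (SD, n = 5 in each group).

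Purb, a protein that binds purine-rich single strands, was the most abundant of this group at 28.7, 23.7, 19.1, 18.3 and 24.0 RPKM in Con1 to Con5. It measured 11.0, 3.52, 5.97 and 6.77 RPKM in ELS1, ELS3, ELS4 and ELS5, and 26.2 RPKM in ELS2. Mdm4, a partner of Mdm2 that restrains p53, had tight controls at 13.3, 13.6, 10.4, 11.7 and 13.2 RPKM. In the same 4 ELS libraries it was at 7.31, 2.12, 3.94 and 4.31 RPKM, and in ELS2 at 12.8 RPKM. No ELS library but ELS2 reached the controls for either gene. Rorb, a nuclear receptor that marks layer IV neurons, was at 2.66 to 6.44 RPKM in controls, 0.930 to 3.05 RPKM in the 4 lower ELS libraries and 6.80 RPKM in ELS2, so ELS1 overlapped Con4. Csrnp3, a nuclear protein of neurons, was at 1.55 to 4.03 RPKM in controls, 0.808 to 1.03 RPKM in the 4 lower ELS libraries and 3.20 RPKM in ELS2. The group also holds Zbtb44, Tp53inp1, Asxl2 and Phc3, the last pair being partners of the Polycomb system.

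Of 38 other chromatin and transcription regulators, 0 passed the adjusted threshold, 11 were lower and 4 higher at an unadjusted p under 0.05, and their median log2 fold change was -0.15, against 0.00 over all tested genes outside the set. Kmt2a, a histone H3 methyltransferase, missed the set by the smallest margin, with a ratio of medians of 0.501.

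All 7 ubiquitin ligases and RNA-binding proteins had ELS1, ELS3, ELS4 and ELS5 below every control. The share was 77.0% over all members and 6.37% over genes above the floor. Cbl, the ligase that tags activated receptor tyrosine kinases, measured 6.06, 6.50, 3.66, 3.96 and 5.85 RPKM in Con1 to Con5. It was at 1.21, 0.180, 0.469 and 1.09 RPKM in ELS1, ELS3, ELS4 and ELS5, and at 6.26 RPKM in ELS2. ELS3 gave only 11 reads for this gene, the fewest of any library. Mib1, which ubiquitinates Notch ligands, measured 13.5, 11.8, 8.68, 9.74 and 14.5 RPKM in controls and 5.55, 0.867, 2.15 and 3.34 RPKM in the 4 lower ELS libraries. Zyg11b, a substrate receptor of a cullin ligase, measured 20.0, 20.5, 13.9, 15.0 and 21.9 RPKM in controls, 11.2, 1.69, 4.01 and 6.91 RPKM in those ELS libraries and 22.9 RPKM in ELS2. ELS2 was at 12.6 RPKM for Mib1, between Con2 and Con1. Birc6, a very large ligase that blocks apoptosis, was at 2.92 to 4.59 RPKM in controls, 1.30 to 2.50 RPKM in the 4 lower ELS libraries and 4.26 RPKM in ELS2. Rc3h1, Klhl11 and Trove2 complete the group. Of 28 other ubiquitin ligases and deubiquitinases, 0 passed the adjusted threshold, 8 were lower and 1 higher at an unadjusted p under 0.05, and their median log2 fold change was -0.07. Cblb, the paralogue of Cbl, was at 4.86 ± 0.937 RPKM in controls and 4.93 ± 0.0848 RPKM in ELS (SD, n = 5 in each group).

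The adhesion, matrix and guidance group of 7 held the protein-coding member with the lowest ratio. Ndst4, which modifies heparan sulfate chains, measured 5.08, 10.2, 8.05, 4.69 and 2.93 RPKM in Con1 to Con5. In ELS1 to ELS5 it measured 0.623, 2.68, 0.0570, 1.38 and 0.250 RPKM. Every ELS level was below every control, with ELS2 close under Con5, and ELS3 rested on 3 reads. The ratio of medians of Ndst4 was 0.123, and 0.197 without ELS3 or ELS5. Tnr, a tenascin of perineuronal nets, measured 14.1, 11.5, 9.78, 11.6 and 14.9 RPKM in controls, 4.71, 1.96, 3.71 and 4.81 RPKM in ELS1, ELS3, ELS4 and ELS5, and 15.1 RPKM in ELS2. Adam22, the synaptic receptor of LGI1, measured 24.0, 20.6, 16.9, 13.4 and 24.1 RPKM in controls and 13.0, 3.50, 5.91 and 9.66 RPKM in the same 4 ELS libraries. ELS1 came within reach of Con4 for Adam22, and ELS2 was at 21.0 RPKM.

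Unc5d, a netrin receptor, was at 3.43 to 6.80 RPKM in controls, 0.907 to 2.40 RPKM in the 4 lower ELS libraries and 5.01 RPKM in ELS2. Fat3, a large cadherin, was at 3.25, 3.23, 2.29, 1.18 and 3.16 RPKM in Con1 to Con5, with Con4 inside the range of the 4 lower ELS libraries, 0.673 to 1.73 RPKM, and ELS2 at 2.75 RPKM. Abi3bp, a protein of the extracellular matrix, was at 3.28, 4.58, 3.70, 0.417 and 1.85 RPKM in controls and 1.47, 1.38, 0.856, 1.30 and 1.21 RPKM in ELS1 to ELS5. In Abi3bp it was Con4 that was lowest of all 10 libraries, and ELS2 lay with the other ELS libraries. Itgb8 is the remaining member. Among 48 other adhesion and guidance genes, 7 were lower and 6 higher at an unadjusted p under 0.05, and 0 passed the adjusted threshold.

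The other signalling genes were Fzd3, Dok6, Lifr, Amer2, Sla, Plcxd3 and Cartpt. Cartpt, the precursor of a neuropeptide linked to feeding, reward and stress, measured 7.57, 5.89, 2.64, 3.31 and 1.69 RPKM in Con1 to Con5. In ELS1 to ELS5 it measured 1.40, 1.58, 0.770, 0.340 and 0.780 RPKM. ELS2 was low here with the rest of its group, although Con5 was only just above it and the controls varied 4.47-fold. Plcxd3, a phospholipase C-like protein, measured 7.98, 11.9, 6.78, 2.88 and 5.05 RPKM in controls and 2.17, 0.582, 1.67 and 1.21 RPKM in ELS1, ELS3, ELS4 and ELS5, with 7.76 RPKM in ELS2. Fzd3, a Wnt receptor needed for axon tracts, measured 6.09, 4.09, 1.74, 1.09 and 5.73 RPKM in controls, 0.761, 0.959, 1.11 and 1.25 RPKM in the 4 lower ELS libraries and 4.38 RPKM in ELS2. Con4 lay among the lower ELS libraries for Fzd3. Sla, an adaptor that dampens receptor signalling, spanned 0.731 to 7.06 RPKM in controls and 1.13 to 2.53 RPKM over all ELS libraries, with Con4 again the lowest.

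The 5 small non-coding RNA rows need the most care, because each rests on few reads and both families have many near-identical copies that can share reads. 7SK RNA, which holds the elongation factor P-TEFb inactive, and U6, the catalytic RNA of the spliceosome, also lack the poly(A) tails that the library kit selects. The longer 7SK row had the lowest ratio of medians of the set, 0.0677. The ratio was 0.0338 without ELS1 or ELS2, 0.0342 without ELS5 and 0.298 with group means, where that of Ndst4 was lower (0.161). This 7SK row measured 20.5, 18.5, 13.9, 12.9 and 18.6 RPKM in Con1 to Con5, 1.27, 0, 0 and 1.25 RPKM in ELS1, ELS3, ELS4 and ELS5, and 22.6 RPKM in ELS2. Its highest library held 120 reads. A second 7SK row of 77 bases measured 3.27 to 7.26 RPKM in controls, 0.646 to 3.93 RPKM in the 4 lower ELS libraries and 11.0 RPKM in ELS2, from at most 16 reads. The 3 U6 rows held at most 17 reads in any library, and 1 of them was at 0.457 and 0.475 RPKM in Con1 and Con5 against 4.24 to 7.12 RPKM in the other controls.

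Among the 14 other or unnamed genes, LOC103690149 split the ELS group in another way. It measured 15.3, 11.2, 11.9, 18.4 and 14.3 RPKM in Con1 to Con5. In ELS1 to ELS5 it measured 14.8, 2.38, 14.9, 2.03 and 2.86 RPKM. ELS1 and ELS3 were at control levels and the other 3, ELS2 included, were low. Its ratio of medians was 0.200 with all libraries, 0.619 without ELS2 or ELS4 and 0.602 without ELS5. Nqo2, a quinone reductase, measured 3.60, 1.92, 3.86, 4.08 and 4.04 RPKM in controls and 3.35, 1.43, 1.41, 1.91 and 3.09 RPKM in ELS1 to ELS5. ELS1 and ELS5 were thus above Con2 for Nqo2. Samd12 was at 6.35 to 9.30 RPKM in controls, 2.03 to 3.50 RPKM in the 4 lower ELS libraries and 9.25 RPKM in ELS2. Dnajb14, a chaperone partner at the endoplasmic reticulum, was at 9.00 to 11.4 RPKM in controls, 1.21 to 6.27 RPKM in those ELS libraries and 11.6 RPKM in ELS2. Fsd1l was at 2.68 to 4.41 RPKM in controls, 0.587 to 2.11 RPKM in the 4 lower ELS libraries and 4.62 RPKM in ELS2. AC116071.1, a row of 78 bases with at most 9 reads, was at 1.88 to 5.21 RPKM in controls, at 0 to 1.22 RPKM in the 4 lower ELS libraries and at 2.72 RPKM in ELS2. The rest are Ttc39b, Tmem245, Lmbrd2, AABR07006860.1, AABR07037528.1, AC120096.1, AABR07066826.1 and AABR07064349.1.

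**Figure D4:**
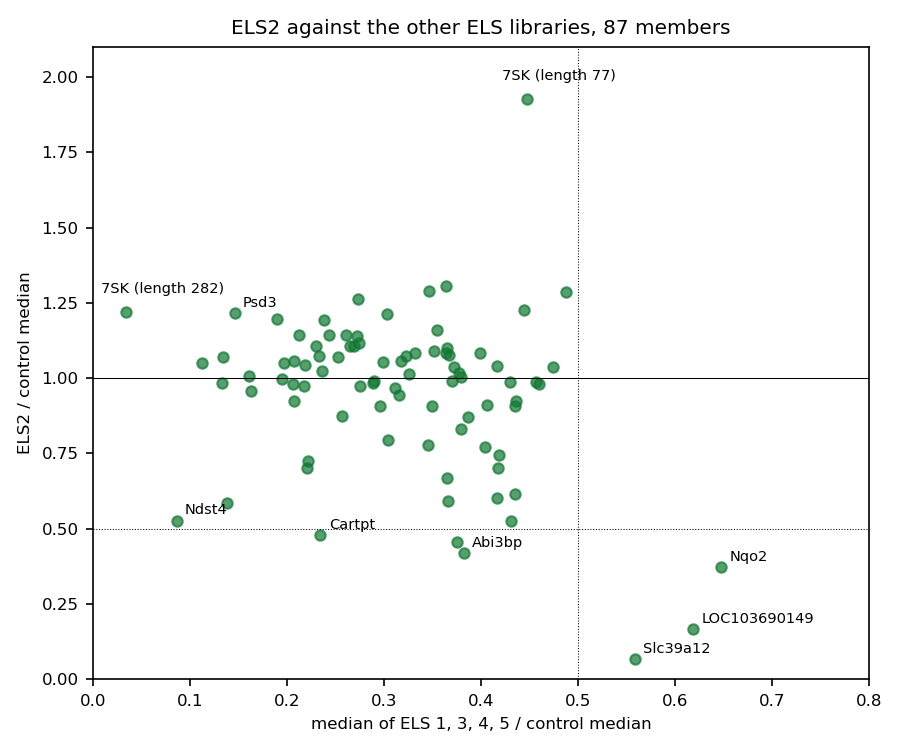
For each of the 87 members, the ELS2 level (vertical axis) and the median of ELS1, ELS3, ELS4 and ELS5 (horizontal axis), both divided by the control median. Solid and dotted lines mark 1 and 0.5, and most points lie near 1 on the vertical axis, while 6 lie at or below 0.5, among them Slc39a12, LOC103690149, Nqo2, Abi3bp and Cartpt.

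ELS2 was low in a few members only. Its level was at most 0.5 of the control median in 6 of 87: Slc39a12 (0.065 of it), LOC103690149 (0.167), Nqo2 (0.371), Abi3bp (0.419), AC120096.1 (0.456) and Cartpt (0.478). In 10 members ELS2 was below every control, namely Ndst4, LOC103690149, Cartpt, AABR07066826.1, Slc9a2, Amer2, AC120096.1, Tp53inp1, Nqo2 and Slc39a12. At the other end, ELS2 exceeded the control median most in the 77-base 7SK row (1.93 of it), Tnr (1.31), Ston2 (1.29), Fsd1l (1.29), Zdhhc21 (1.26) and Unc5d (1.23). Of the 48 members with at least 50 reads in every library, 2 had ELS2 below their lowest control. That filter was chosen after seeing the data and applies to ELS2 too. It therefore drops members because they are low in ELS2, and nothing is read from this count.

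**Figure D5:**
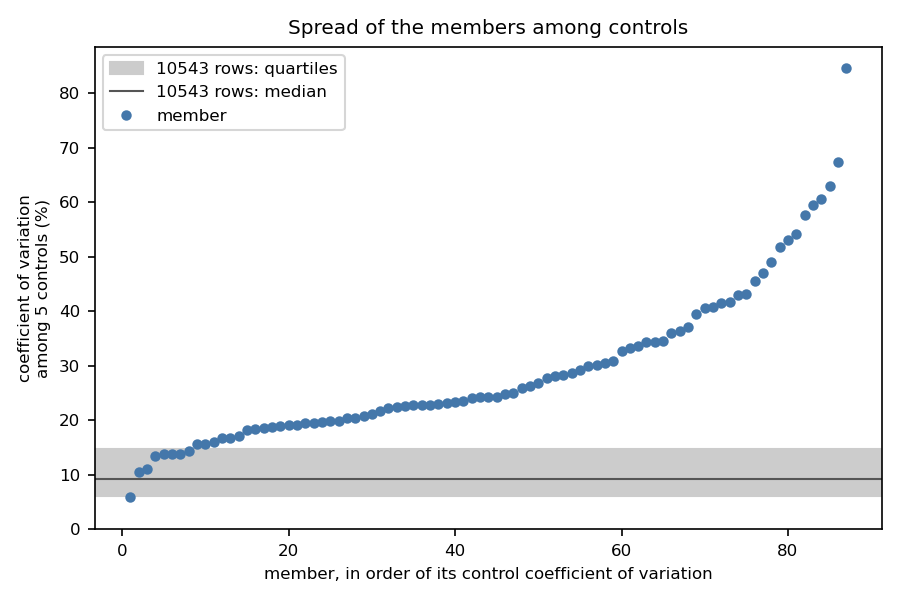
Coefficient of variation among the 5 controls (vertical axis, percent) of each member (circles), in rising order along the horizontal axis. The grey band spans the quartiles and the line marks the median (9.16%) of the 10543 genes with a control median of at least 3 RPKM, and most members lie above the band, up to 84.5%.

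The members also varied among the 5 controls. Their median coefficient of variation was 24.3% (5.93% to 84.5%), against 9.16% over the 10543 genes above the floor, and the median ratio of highest to lowest control was 1.87 against 1.26. In 35 members this ratio was over 2. The comparison was not matched for level: the median control level was 5.51 RPKM for members and 11.6 RPKM for genes above the floor. The same control libraries also entered the choice of members. The widest controls were those of a U6 row, Slc9a2, Sla, Fzd3 and Abi3bp, and the tightest those of Ston2, Dnajb14, Mdm4, Grm5 and Samd12. The members were also less deeply read: the fewest reads in any library had a median of 53, against 456 for genes above the floor, and 13 members had under 10 reads in some library. Since the low ELS libraries enter that count, part of the gap is set by the choice of members. Gene length had a median of 2942 bases, against 2283, and 10 members were shorter than 500 bases.

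Just inside the ratio threshold were Slc39a12 (0.498), Grm5 (0.496) and Nqo2 (0.495), and just outside it Kmt2a (0.501), Cdhr1 (0.503) and AABR07051952.1 (0.509). At the control floor Csrnp3 (3.04 RPKM), AABR07037528.1 (3.10) and Fat3 (3.16) were just inside, and Lnp1 (2.99), uc_338 (2.99) and Spata46 (2.89) just under it. Over the whole set the ELS median was 6.77% to 49.8% of the control median, with a median of 36.9%.

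Members were also placed in chromosome order among the genes above the floor. Of the 87, 74 matched a RefSeq gene by symbol, among 9239 genes above the floor with an unshared symbol that did. Only these 9239 were ordered, so genes below the floor or unmatched may lie between neighbours in this order. In it 5 pairs of members were next to each other: Rictor and Lifr, Csrnp3 and Scn1a, Nfib and Zdhhc21, Zdhhc21 and Ttc39b, and Kcnq3 and Sla. The number of pairs expected was not computed, and nothing is read from them. Neighbours could differ in their lowest control: Sla was lowest in Con4 at 0.731 RPKM and Kcnq3 in Con3 at 5.98 RPKM.

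The remaining lists of related genes were examined in the same fit, and 0 of their genes passed the adjusted threshold. Among 23 postsynaptic scaffolds, with 0 members in the set, 1 was lower and 4 higher at an unadjusted p under 0.05. Of 19 active zone proteins besides Stxbp5l, 1 was lower and 5 higher, and Stxbp5, its paralogue, was at 24.9 ± 1.32 RPKM in controls and 23.5 ± 1.31 RPKM in ELS (SD, n = 5 in each group). Of 34 cytoskeleton and motor genes besides Myo5a and Tanc2, 11 were lower and 5 higher. Of 34 RNA-binding and splicing regulators, with 0 members, 6 were lower and 1 higher. Of 35 phosphoinositide and calcium signalling genes besides Plcxd3, 5 were lower and 5 higher, and of 28 membrane trafficking genes besides Vps13c and Rab27b, 1 was lower and 6 higher.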

How the data were processed

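RNA was sequenced from 10 prefrontal cortex samples. Per the labels' protocols, RNA was treated with DNase, and the kit was a stranded one for mRNA. STAR, featureCounts and the build rn6 stand in the submitters' processing notes, without the strand setting or the annotation. For 16041 genes the authors deposited RPKM values, a unit read from the values. It could also be FPKM. Reads shared by near-identical, overlapping or antisense genes cannot be told apart.

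Values were exact multiples of single reads in all 16015 rows above 0 (tolerance 0.002 reads, 100% recovered), and reads, lengths and library totals were computed from them. 26 rows were at 0 everywhere. Members and gene lists were chosen with earlier results of these data known, and roles were assigned after the values were seen. The background fit used limma 3.58.1 in R 4.3.3 on log2(RPKM + 0.1), two-sided, with Benjamini-Hochberg adjustment, for 14642 genes with at least 0.5 RPKM in 5 libraries. Fold changes on this scale understate those of low genes. limma and read recovery were tested on simulated data. The limma simulation used a fixed spread between libraries and no library that departs from its group. It therefore does not show what limma could find in these data. Library measures were compared by exact permutation tests, adjusted over 3.

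The text names the 12 members of highest control median, the 12 of lowest ratio, the 6 of lowest and 6 of highest ELS2 to control ratio, the 5 of lowest and 5 of highest control variation, members in gene lists or sharing a symbol, and those next to a threshold. Others are named without their own values, or were chosen after their values were seen. Values of 2 members are not reported here, though both are in the counts.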

Additional observations from a re-analysis of the deposited data

Results flagged for a closer look

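This was examined in 54 members, those named by the rule less the 2 not reported. In 19 of them ELS2 was so far above the other 4 ELS libraries that its gap to the next library took up more than 0.71 of the group's whole range, the critical share for 5 samples. The shares were 0.944 for the longer 7SK row (22.6 RPKM in ELS2), 0.9697 for a U6 row (ENSRNOG00000058615), 0.9089 for Csrnp3, 0.8847 for Stxbp5l, 0.8744 for Slc9a7 and 0.8657 for Fzd3. They were 0.8391 for Rfx3, 0.8336 for Kcnq3, 0.8312 for Cbl, 0.8232 for Klf12, 0.8199 for Arfgef3 and 0.8034 for Ttbk2. The remaining ones were 0.7974 for Ptprt, 0.796 for Samd12, 0.7891 for Psd3, 0.7832 for Tnr, 0.7789 for Plcxd3, 0.7748 for Myo5a and 0.77 for Zdhhc21. Among controls, Con2 was apart at the low end for Nqo2 (0.7776, at 1.92 RPKM) and Con5 for Slc39a12 (0.8533, at 0.303 RPKM).

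These are 21 of 114 groups examined, which are the control and ELS groups of the 54 members and of 3 library measures. Over all 87 members, ELS2 was apart at the high end in 32. Chance alone gives such a gap in about 5% of groups, but the groups share the same libraries, and members were chosen on these values.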

How the results depend on the processing

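The number of members depended on the thresholds: it was 169 with a control floor of 1 RPKM, 50 with a floor of 5 RPKM, 55 with a ratio of at most 0.4 and 151 with a ratio of at most 0.6. It was 80 with group means, which shared 49 of the 87 members, 86 with median-of-ratios scaling (85 shared), and 69 to 99 when each library was left out in turn. Without ELS2 it was 99 (84 shared), and without ELS2 and Con4 together, a choice made after seeing the data, 107 (81 shared). The share of members at or above the lowest control in ELS2 was 85.1% to 88.5% with each control left out. It was 95.8% over the 48 members with at least 50 reads in every library, also chosen after seeing the data. ELS2 itself had to pass that filter, so this share is partly set by it. For the 56 members under the naming rule, 672 ratios of medians were recomputed, 0 turned direction, 102 exceeded 0.5, and the highest was 0.741. The same libraries had chosen these members for a low ratio. That 0 turned direction is largely set by this choice, and nothing is read from it. Group means put 23 of the 56 over 0.5.

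Across all genes, limma called 0 genes under other pseudocounts, filters and scaling and with voom. With each library left out in turn it called 0 to 440 genes, with 440 (305 lower) without ELS2 and 1 without ELS5. Without ELS2 and Con4 together it called 1071 (565 lower). The cause was not tested. With the replicate number as a block it called 0. The deviations of same-numbered samples had correlations of only -0.0817 to 0.0658. Such weak values do not show a pairing, and they cannot exclude a shared litter or batch. The difference in the share of reads in listed genes was 0.959 to 1.45 percentage points with each library left out. It passed the adjusted threshold only without ELS2, at 1.45. The difference in genes at 0 was 39.45 to 55.45 and stayed past it in each. Reads limit 39 members, which had under 50 in some library.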
